A study of Danio rerio with 9 samples.

Results

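The Krüppel-like factors (KLF) klf2a, klf2b, klf4, klf5l, klf6a, klf6b, klf11b and klf12a are 8 zebrafish transcription factor genes, of 12900 genes that have a named probe on the array. They were measured by every probe whose RefSeq accession on the array belongs to one of these genes, which gave 13 probes of 43603. The list was chosen by how these genes had come out on the same 9 arrays. Which comparison chose them is not recorded, so the levels and differences of the 8 genes are a description in all 3 comparisons. They support nothing by themselves, and no p-value is given for a KLF gene of the list.

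Zebrafish at 5 days post fertilization were extracted whole, and their RNA was hybridised to 1-colour arrays, 3 arrays in each of 3 groups. Larvae of the tacrine-neomycin group had 1 h of tacrine at 50 µM, which blocks the breakdown of acetylcholine, followed by 1 h of neomycin at 200 µM. Larvae of the neomycin group had a pretreatment without tacrine and then the same neomycin step, neomycin being an aminoglycoside known for destroying hair cells of the lateral line and ear. Control larvae had neither compound. No strain or genotype is given in the labels, which state 3 independent experiments per group. The labels name 1% DMSO in the pretreatment of larvae without tacrine and give no DMSO level for larvae with it. If the DMSO level differed, its effect cannot be told apart from that of tacrine. No group with tacrine alone was analysed here, so what tacrine does without neomycin cannot be read from these arrays.

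KLF proteins bind CACCC and GC boxes in DNA through a row of zinc fingers at their C-terminal end, and the rest of the protein decides whether the bound gene is activated or repressed. Many KLF genes are themselves switched on quickly by growth factors, stress or, in vessels, by blood flow. The SP proteins share the same kind of zinc fingers and compete for similar sites. A whole larva pools every tissue, so fewer cells of a type and less RNA per cell cannot be told apart in any value below.

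Each of the 3 slides carried 1 array of every group, with replicate numbers equal to slides per the file headers, so differences could also be read within a slide. Place on the slide was the same within a group (place 4 for tacrine-neomycin, place 3 for neomycin and place 1 for control), so place and group cannot be told apart. The 75th percentile of the processed signal was 151 to 226 on tacrine-neomycin arrays, 142 to 170 on neomycin arrays and 105 to 137 on control arrays. Probes well above background were 69.7% to 73.8% on tacrine-neomycin arrays, 69.9% to 70.7% on neomycin arrays and 65.6% to 69.2% on control arrays. The control arrays were the dimmest by both measures, so array brightness and the control group cannot be told apart. This limits what is read from probes below background on control arrays alone. Arrays of a group correlated with each other at r of 0.980 to 0.986 and arrays of different groups at 0.967 to 0.984. Of the markers of 6 cell types, 69 of 73 on the array were measurable enough to test, with signals of endothelium, epidermis, ionocytes, leukocytes, red cells and muscle all present, as the label whole body states. Precision is set by the small number of arrays, with a median standard error (SE) of 0.198 for a log2 difference.

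Levels are given as the log2 signal of a probe minus its own array's 75th percentile, so that 0 is a probe at that percentile and -3 a dim one. Differences of 2 groups are on the same log2 scale, from 1 limma model over all 9 arrays and 31672 probes, and a probe was called where its Benjamini-Hochberg adjusted p was under 0.05. A gene is read from its brightest tested probe, and levels of different probes are not set against each other. All 8 genes had a tested probe and 12 of the 13 probes were tested. For klf4 this held only because the arrays of treated larvae showed it above background, since none of the control arrays did on any of its 3 probes. The same was true of the second klf2b probe and the second klf5l probe. The 3 comparisons share arrays and are not independent of each other.

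**Figure D1:**
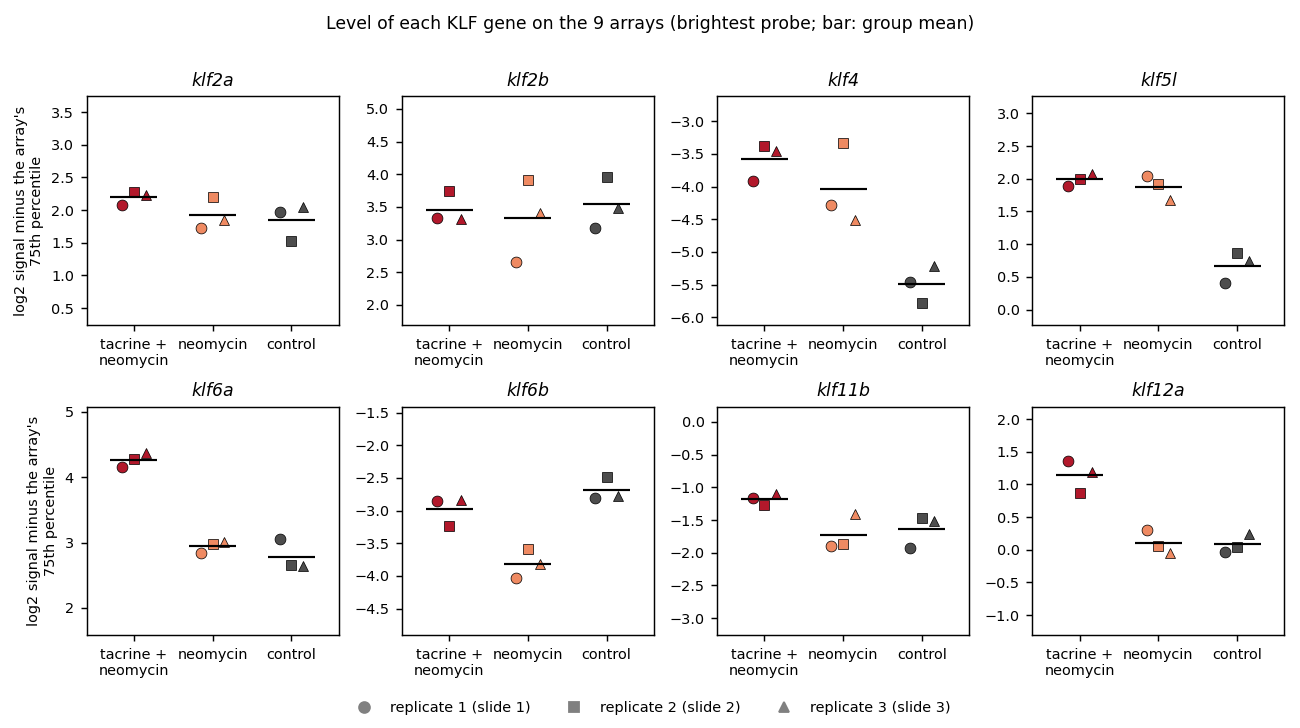
Level of the brightest probe of each KLF gene on each of the 9 arrays, as the log2 signal minus the array's 75th percentile (y axis), with tacrine + neomycin at the left of each panel, then neomycin, then control. Symbols give the replicate, which is also the slide, and bars give group means. Each y axis spans the same range of log2 units from its own start; klf6a and klf12a are high on the tacrine + neomycin arrays only, klf4 and klf5l are low on the control arrays only, and klf6b is low on the neomycin arrays only.

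The plot of levels by array shows 3 layouts. klf6a, klf12a and, by less, klf11b were highest in tacrine-neomycin larvae, with the arrays of neomycin and control larvae overlapping. klf4 and klf5l were lowest in control larvae, with the treated groups overlapping. klf6b was lowest in neomycin larvae, while klf2a and klf2b varied as much between replicates as between groups.

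klf6a is one of the zebrafish copies of KLF6, a factor that acts soon after tissue injury in mammals, and klf6a takes part in regrowth of optic axons in zebrafish. Its 1 probe stood at 4.15, 4.27 and 4.38 in tacrine-neomycin larvae, at 2.84, 2.97 and 3.01 in neomycin larvae, and at 3.05, 2.66 and 2.65 in control larvae. Every tacrine-neomycin array lay above all 6 others, and the neomycin and control arrays overlapped. The mean was 4.27 ± 0.11 in tacrine-neomycin larvae and 2.94 ± 0.09 in neomycin larvae (SD, n = 3 each), a called difference of 1.33 (SE 0.15) or 2.51-fold. Against control larvae, at 2.79 ± 0.23, tacrine-neomycin larvae differed by 1.48 (SE 0.15), which was called, or 2.79-fold. Neomycin minus control was 0.15 (SE 0.15) and was not called. The slides gave 1.31, 1.30 and 1.37 for tacrine-neomycin minus neomycin, the narrowest spread over slides of any of the 8 genes in that comparison.

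klf12a is a copy of KLF12, which in mammals represses genes by recruiting the corepressor CtBP. Its levels were 1.37, 0.87 and 1.19 in tacrine-neomycin larvae, against 0.30, 0.06 and -0.05 in neomycin larvae and -0.04, 0.05 and 0.24 in control larvae. The tacrine-neomycin arrays again lay above all the others, and the remaining groups overlapped. The difference was 1.04 (SE 0.17, 2.05-fold) for tacrine-neomycin minus neomycin and 1.06 (SE 0.17, 2.08-fold) for tacrine-neomycin minus control, both called. Neomycin minus control was 0.02 (SE 0.17). The call against neomycin larvae was lost without neomycin replicate 2 (1.02), neomycin replicate 3 (0.96), tacrine-neomycin replicate 1 (0.93) or tacrine-neomycin replicate 3 (1.01).

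klf11b is a copy of KLF11, a factor that answers to TGF-beta in mammals and represses through the Sin3 complex. Its levels were -1.16, -1.27 and -1.10 in tacrine-neomycin larvae, against -1.90, -1.87 and -1.40 in neomycin larvae and -1.93, -1.47 and -1.52 in control larvae. The order resembled that of klf12a, with no overlap between the tacrine-neomycin arrays and the others. At 0.55 (SE 0.19, 1.46-fold) for tacrine-neomycin minus neomycin and 0.46 (SE 0.19, 1.38-fold) for tacrine-neomycin minus control, neither difference was called. With normexp background correction and 75th percentile scaling the second was -0.18, where the median of all tested probes was -0.41. On the slides the first was 0.75, 0.60 and 0.30.

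klf4 is known from mammals as a factor of the skin barrier and of pluripotent cells. Its brightest probe was dim, at -3.91, -3.39 and -3.46 in tacrine-neomycin larvae, -4.29, -3.33 and -4.51 in neomycin larvae, and -5.46, -5.77 and -5.22 in control larvae. As processed signal before scaling, these were 15.0, 14.5 and 15.8 units in tacrine-neomycin larvae, 8.72, 14.1 and 7.20 units in neomycin larvae, and 2.62, 1.92 and 3.68 units in control larvae. All 6 treated arrays were above background and above every control array, whereas no control array was above background, so the size of the difference is uncertain. For the folds given, a control value under that array's weakest signal among probes well above background was raised to that signal. Control values above it were left as they were although below background, so these folds are not lower limits. By this rule, klf4 was 3.55-fold higher in tacrine-neomycin than in control larvae, which was called (log2 difference 1.90, SE 0.30). It was 2.59-fold higher in neomycin than in control larvae, which was not called (1.44, SE 0.30). Tacrine-neomycin minus neomycin was 0.46 (SE 0.30), with overlapping arrays. The probe entered the test only with the treated arrays, where it was high, so nothing is read from its call.

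The other klf4 probes were dim as well. The first of them stood at -4.41, -4.33 and -4.61 in tacrine-neomycin larvae, -5.26, -4.16 and -5.30 in neomycin larvae and -6.11, -5.75 and -6.43 in control larvae. It was called only between tacrine-neomycin and control larvae, as 2.57-fold higher by the same rule. That call was kept in 5 of the 9 fits that each left out 1 array (log2 differences of 1.48 to 1.82). It was lost without control replicate 1, control replicate 3, tacrine-neomycin replicate 1 or tacrine-neomycin replicate 2. This probe too entered the test only with treated arrays, so nothing is read from its call. The second measured 1.72-fold higher in tacrine-neomycin than in control larvae and 1.73-fold higher in neomycin than in control larvae, neither of them called. Its control values already lay above the weakest signal used for the rule, so none was raised, and these folds are not lower limits either. It was above background on 3 tacrine-neomycin arrays and 2 neomycin arrays. Between tacrine-neomycin and neomycin larvae these probes gave 0.45 and -0.01. The means of all 3 probes were above control in both treated groups on this scale. On the last probe, however, the neomycin and control arrays overlapped, and slide 3 gave -0.12 for neomycin minus control. The brightest was -0.64 (tacrine-neomycin) and -0.62 (neomycin) against control with normexp and 75th percentile scaling. In that version the medians of all tested probes were -0.41 and -0.35.

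klf5l is named for its likeness to KLF5, which in mice is active in dividing cells of the intestinal lining. Its brightest probe stood at 1.90, 2.00 and 2.07 in tacrine-neomycin larvae, 2.04, 1.91 and 1.68 in neomycin larvae, and 0.40, 0.86 and 0.74 in control larvae. All 6 treated arrays lay above the 3 control arrays, and the treated groups overlapped. The mean was 1.88 ± 0.19 in neomycin larvae and 0.67 ± 0.24 in control larvae (SD, n = 3 each), a called difference of 1.21 (SE 0.16, 2.31-fold). It was also called for tacrine-neomycin minus control, at 1.32 (SE 0.16, 2.50-fold), while tacrine-neomycin minus neomycin was 0.11 (SE 0.16). The call between neomycin and control larvae was lost in 7 of the 9 fits that each left out 1 array, at 1.08 to 1.31 over all 9. It was kept without neomycin replicate 3 (1.31) or tacrine-neomycin replicate 1 (1.21). That call was also lost with the slide as a block, with no filter on background, with normexp under either scaling and in the authors' deposited matrix. The second klf5l probe was below background on every control array. By the rule used for klf4 it gave 2.26-fold for tacrine-neomycin over control and 2.17-fold for neomycin over control, which are not lower limits. The log2 differences were 1.32 and 1.25 (SE 0.45 each), neither called.

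klf6b is another zebrafish copy of KLF6, and its levels were laid out differently from those of klf6a. Its 1 probe read -2.85, -3.24 and -2.84 in tacrine-neomycin larvae, -4.03, -3.59 and -3.82 in neomycin larvae, and -2.80, -2.49 and -2.78 in control larvae. Every neomycin array was below all 6 others, and the tacrine-neomycin arrays lay just below those of controls with no overlap. The difference was 0.84 (SE 0.18, 1.79-fold) for tacrine-neomycin minus neomycin, which was called, -1.12 (SE 0.18, 2.18-fold lower in neomycin larvae) for neomycin minus control, which was not, and -0.29 (SE 0.18) for tacrine-neomycin minus control.

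The probe of klf6b was dim, and its differences moved with the handling of background. Before scaling, its processed signal was 31.3, 16.1 and 24.4 units in tacrine-neomycin larvae, 10.5, 11.8 and 11.5 units in neomycin larvae, and 16.5, 18.7 and 20.0 units in control larvae. Slides 1, 2 and 3 gave 1.17, 0.35 and 0.99 for tacrine-neomycin minus neomycin, and -1.22, -1.10 and -1.05 for neomycin minus control. The call for tacrine-neomycin minus neomycin was lost with the slide as a block and in 8 of the 9 fits without 1 array (0.73 to 0.97 over all 9), all but that without control replicate 1 (0.84). In the authors' deposited matrix it was 0.10 for tacrine-neomycin minus neomycin and -0.18 for neomycin minus control, and with another background correction (normexp) and quantile scaling it was 0.17 and -0.25. With normexp and 75th percentile scaling it was 0.11 and -0.89, where the medians of all tested probes were -0.08 and -0.35. None of these versions called klf6b.

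klf2a and klf2b are copies of KLF2, a factor of endothelial cells that is switched on by blood flow; in zebrafish klf2a is active in the lining of the heart and its valves. The brightest probe of klf2a stood at 2.08, 2.27 and 2.24 in tacrine-neomycin larvae, 1.72, 2.20 and 1.86 in neomycin larvae, and 1.98, 1.53 and 2.05 in control larvae. The tacrine-neomycin arrays did not overlap with the control arrays and did with the neomycin arrays, and no difference was called (0.27, 0.07 and 0.34 in the 3 comparisons, SE 0.18). The other klf2a probe was above background on 2 of the 3 tacrine-neomycin arrays and on none of the others, so it was not tested and no fold is given. It stood at -5.64, -4.52 and -4.73 in tacrine-neomycin larvae, -5.27, -5.22 and -5.28 in neomycin larvae, and -5.54, -6.63 and -6.77 in control larvae, and the tacrine-neomycin arrays overlapped with those of both other groups.

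For klf2b, the brightest probe stood at 3.33, 3.74 and 3.31 in tacrine-neomycin larvae, 2.66, 3.91 and 3.41 in neomycin larvae, and 3.18, 3.95 and 3.48 in control larvae. The 3 groups overlapped, replicate 2 was the highest array in each, and the differences were 0.13, -0.21 and -0.08 (SE 0.32). A second, dim klf2b probe gave another picture, at -3.79, -4.57 and -3.87 in tacrine-neomycin larvae, -5.99, -4.37 and -5.82 in neomycin larvae, and -6.89, -6.66 and -5.36 in control larvae. It was above background on 3 tacrine-neomycin arrays, 1 neomycin array and no control array. By the rule used for klf4, tacrine-neomycin larvae were 2.61-fold higher than control larvae on it, which is not a lower limit. The log2 difference of 2.22 (SE 0.51) was called. The probe entered the test only with the tacrine-neomycin arrays, where it was high, so nothing is read from this call. That call was lost with the slide as a block and was kept in 3 of the 9 fits without 1 array (1.93 to 2.70), those without control replicate 3, neomycin replicate 1 or neomycin replicate 2. The values of the klf2b probes therefore disagreed, those of the second resting on control signals below background.

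**Figure D2:**
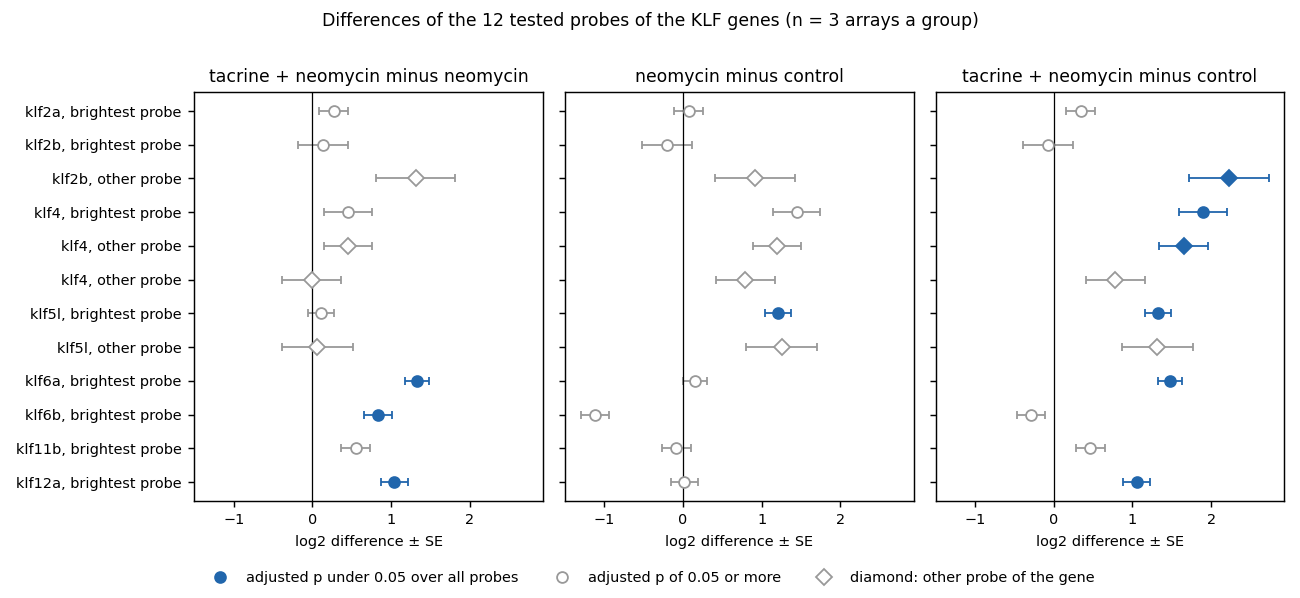
Log2 differences (x axis) with their SE for the 12 tested probes of the KLF genes, in tacrine + neomycin minus neomycin, neomycin minus control and tacrine + neomycin minus control (left to right), n = 3 arrays a group. Filled points passed an adjusted p of 0.05 over all probes; the klf4 probes and the klf5l probes lie on the same side of 0 against control, and the klf2b probes do not. Points against control of klf4 and of the other probes of klf2b and klf5l rest on control arrays below background.

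Counted by brightest probe, 3 of the 8 genes were called higher and 0 lower for tacrine-neomycin minus neomycin (klf6a, klf6b and klf12a), where 1.92% of the 11326 tested genes were called higher and 0.848% lower. For neomycin minus control 1 was called higher (klf5l) and 0 lower, against 0.115% higher and 0.0441% lower of all tested genes. For tacrine-neomycin minus control 4 were called higher (klf4, klf5l, klf6a and klf12a) and 0 lower, against 3.37% and 2.29%. Of these, klf4 entered the test only with the treated arrays, where it was high. By probe, 3, 1 and 6 of the 12 were called higher in the 3 comparisons, against 1.80%, 0.0852% and 3.17% of all tested probes. The genes were chosen on these arrays, so nothing is read from these counts.

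Non-overlap of the arrays of a comparison gave the same kind of count. For tacrine-neomycin minus neomycin 4 of the 8 genes did not overlap (klf6a, klf6b, klf11b and klf12a), where 26.8% of all tested genes did not. For neomycin minus control it was 3 (klf4, klf5l and klf6b) against 13.5%, and for tacrine-neomycin minus control it was 7, all but klf2b, against 29.9%. The median log2 difference of the 8 genes was 0.50, 0.04 and 0.76 in these comparisons, beside -0.03, -0.01 and -0.05 over all tested genes. All 8 genes were above 0 for tacrine-neomycin minus neomycin, 5 for neomycin minus control and 6 for tacrine-neomycin minus control. Of all 11326 tested genes, 5243, 5462 and 5025 were above 0 in these comparisons.

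**Figure D3:**
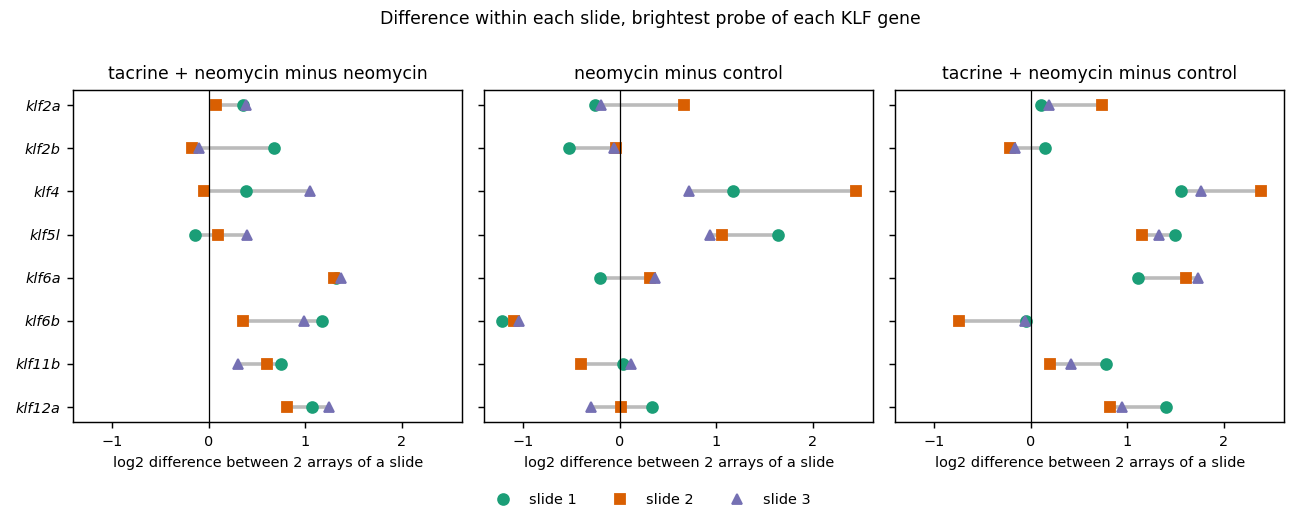
Log2 difference between the 2 arrays of each slide (x axis) for the brightest probe of each KLF gene, in tacrine + neomycin minus neomycin, neomycin minus control and tacrine + neomycin minus control (left to right), 1 symbol per slide. klf6a, klf12a, klf11b and klf2a are above 0 on all 3 slides in the first and last comparison, the last 2 genes by less. klf6b is below 0 on all 3 in neomycin minus control. The points of klf4 against control rest on control arrays below background.

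Read within the slides by its brightest probe, klf4 was higher on both treated arrays than on the control array of every slide, with no size given because the control arrays were below background. klf5l was above control on every slide, at 1.50, 1.15 and 1.32 for tacrine-neomycin minus control and 1.64, 1.06 and 0.93 for neomycin minus control. klf12a gave 1.07, 0.81 and 1.24 for tacrine-neomycin minus neomycin, while its neomycin minus control values lay on both sides of 0 (0.34, 0.01 and -0.30). klf2b changed sign between slides in tacrine-neomycin minus neomycin, with 0.67, -0.18 and -0.10.

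The genes whose levels ran closest to each member over the 9 arrays were found among 21036 tested probes with 1 symbol, by the root mean square (RMS) difference after each probe was centred on its own mean. For klf6a they were mfsd2ab (0.146), ugt5a4 (0.159) and cebpd (0.170), where klf6a itself varied about its mean by an RMS of 0.677. For klf12a, with an RMS of its own of 0.519, they were fstl3 (0.112), sik1 (0.116) and zdhhc18b (0.130). klf5l, at 0.616, ran closest to nfkbiaa (0.201), rgs13a (0.215) and sox7 (0.221), and klf4, at 0.881, to serpine3 (0.231), errfi1a (0.348) and junba (0.349), with its 3 control values below background. For klf11b, at 0.303, they were ctnnb2 (0.0488), txnipa (0.0837) and mapk4 (0.0856). klf6b, at 0.506, had no probe nearer than adtrp1 (0.229), eral1 (0.236) and znf423 (0.242). klf2a, at 0.234, and klf2b, at 0.378, varied mostly between replicates; their nearest were flrt2 (0.101), ube2e2 (0.103) and nkx2.4a (0.106) for klf2a, and aldocb (0.0893), lmo7a (0.103) and tcf7l2 (0.104) for klf2b. Among the 8 genes themselves the nearest pair was klf6a and klf12a (0.310).

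The other KLF genes were looked up from a list written with earlier results of these arrays known, as were all lists below. Of 12 on the array 11 were tested, and for tacrine-neomycin minus neomycin 1 rose, 0 fell and 10 were not called. That gene was klf1, the factor that switches on globin genes in red cells, which stood at -1.75, -2.20 and -2.06 in tacrine-neomycin larvae, against -2.91, -2.76 and -2.75 in neomycin larvae and -2.45, -2.65 and -2.95 in control larvae. Its difference was 0.80 (SE 0.17, limma adjusted p = 0.0478), a call that held in only 1 of the 9 fits without 1 array, that without control replicate 1 (0.67 to 0.90 over all 9). The call was also lost with the slide as a block, quantile scaling, no filter, either normexp version and the authors' matrix. By limma 0 were called for neomycin minus control (5 at an unadjusted p under 0.05) and 0 for tacrine-neomycin minus control (2 at that p). Of all 11326 tested genes, 17.4% had an unadjusted p under 0.05 for tacrine-neomycin minus neomycin, 8.18% for neomycin minus control and 22.0% for tacrine-neomycin minus control, and the counts at that p below stand against these shares.

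klf9, a factor that answers to glucocorticoids and thyroid hormone, had a wide spread, with means of -1.38 ± 0.36 in tacrine-neomycin larvae, -2.71 ± 0.97 in neomycin larvae and -0.93 ± 0.22 in control larvae (SD, n = 3 each). Its neomycin arrays stood at -3.29, -3.26 and -1.59. Neomycin replicates 1 and 2 were far below every other array, and neomycin replicate 3 was within the range of the tacrine-neomycin arrays. Its differences were 1.34 (SE 0.42, limma adjusted p = 0.141) for tacrine-neomycin minus neomycin and -1.78 (SE 0.42, limma adjusted p = 0.217) for neomycin minus control, and neither was called. klf13 varied between replicates in every group, with an SD of 0.54 in tacrine-neomycin, 0.65 in neomycin and 0.52 in control larvae. Its difference was 1.22 (SE 0.40, limma adjusted p = 0.152) for tacrine-neomycin minus neomycin, at 1.58, 1.46 and 0.61 on the slides. The other KLF genes had a median of 0.40 for tacrine-neomycin minus neomycin (10 of 11 above 0), -0.48 for neomycin minus control (2 of 11 above 0) and 0.24 for tacrine-neomycin minus control (7 of 11 above 0). Beside these stand 5243, 5462 and 5025 of all 11326 tested genes above 0.

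**Figure D4:**
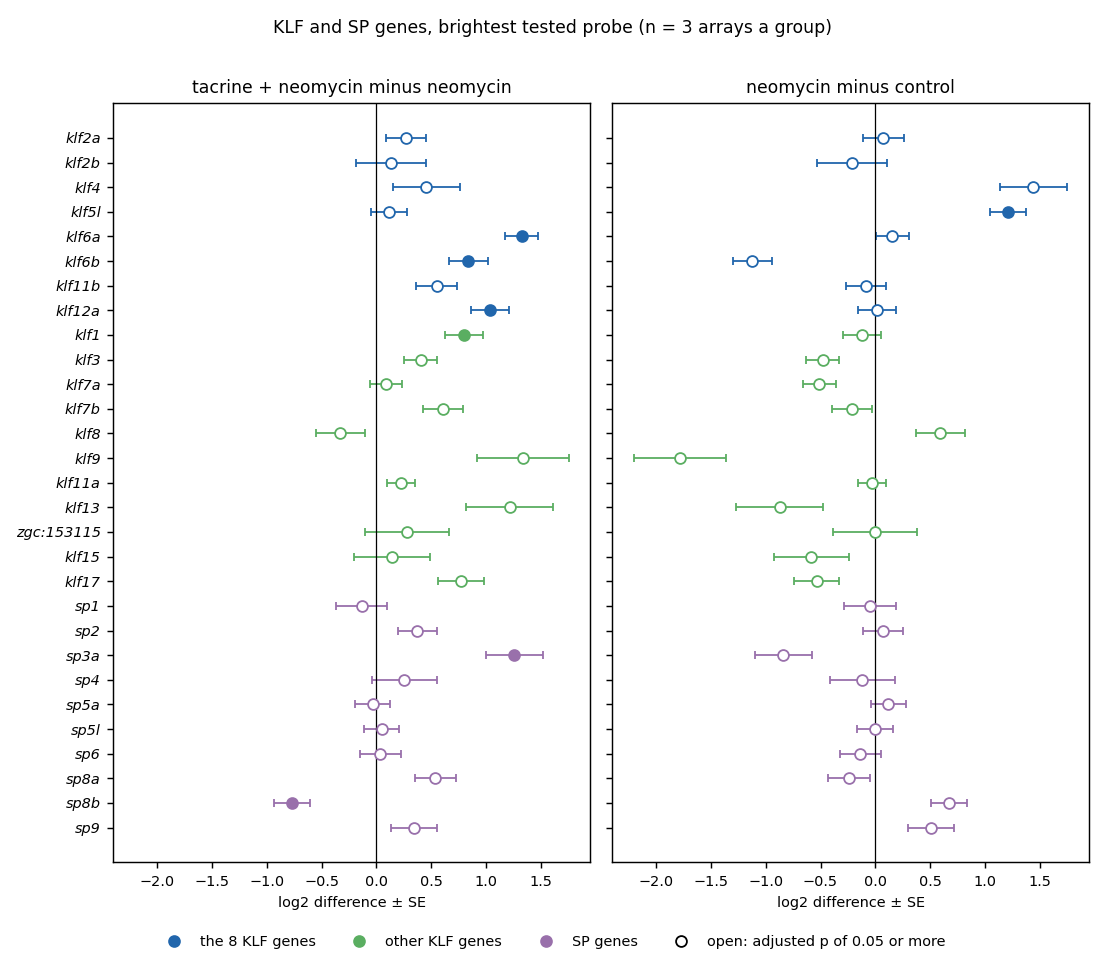
Log2 difference (x axis) with its SE for the brightest tested probe of the 8 KLF genes, the 11 other KLF genes and the 10 SP genes, in tacrine + neomycin minus neomycin (left) and neomycin minus control (right), n = 3 arrays a group. Filled points passed an adjusted p of 0.05. On the left klf1, sp3a and sp8b pass, sp3a having entered the test only with its tacrine + neomycin arrays. klf9 lies far from 0 on both sides with a wide SE.

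Of the SP genes, the sister family with the same zinc fingers, 10 of 11 on the array were tested. For tacrine-neomycin minus neomycin sp3a rose by 1.26 (SE 0.26, limma adjusted p = 0.0406). No neomycin array showed it above background, and by the rule used for klf4 it was 2.13-fold higher. It was above background on 3 tacrine-neomycin and 2 control arrays. It thus entered the test only with the tacrine-neomycin arrays, where it was high, so nothing is read from its p-value. Its call was kept in 2 of the 9 fits without 1 array, those without control replicate 1 (1.26) or tacrine-neomycin replicate 3 (1.52). sp8b fell by 0.77 (log2 difference -0.77, SE 0.17, limma adjusted p = 0.0472), a call lost in all 9 (-0.88 to -0.68) and with the slide as a block. For tacrine-neomycin minus control sp9 rose by 0.86 (SE 0.21, limma adjusted p = 0.0463), also lost in all 9 (0.65 to 0.99). For neomycin minus control limma called 0 of the 10, with 3 at an unadjusted p under 0.05. The plot of the KLF and SP families shows these values beside those of the 8 genes.

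The kinase ERK5 and the factor MEF2 switch on KLF2 and KLF4 in endothelial cells, and the CCM complex holds that route down. Of their genes and partners, 14 of 16 on the array were tested and limma called 0 in each comparison, with medians of 0.13 for tacrine-neomycin minus neomycin, -0.02 for neomycin minus control and -0.01 for tacrine-neomycin minus control. At an unadjusted p under 0.05 there were 0 for tacrine-neomycin minus neomycin, 3 for neomycin minus control and 0 for tacrine-neomycin minus control, of 14 genes, beside 17.4%, 8.18% and 22.0% of all tested genes. Of 11 corepressors and coactivators that KLF proteins recruit, all were tested and limma called 0 in each comparison, with 1, 0 and 0 at an unadjusted p under 0.05.

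Of the endothelial genes linked to KLF2, 13 of 20 on the array were tested. For tacrine-neomycin minus neomycin 2 rose and 1 fell, where 1.92% of all tested genes were called higher and 0.848% lower. At an unadjusted p under 0.05 there were 7, 3 and 7 of the 13 in the 3 comparisons, beside 17.4%, 8.18% and 22.0% of all tested genes. dusp5, a phosphatase that switches off the kinase ERK, stood at 3.16, 2.90 and 2.87 in tacrine-neomycin larvae, 1.69, 2.15 and 1.56 in neomycin larvae, and 0.51, 0.61 and 0.51 in control larvae, so no group overlapped another. It rose by 1.18 (SE 0.17, limma adjusted p = 0.0114) for tacrine-neomycin minus neomycin, a call lost only without tacrine-neomycin replicate 1 (1.09) among the fits without 1 array. It rose by 1.25 (SE 0.17, limma adjusted p = 0.0454) for neomycin minus control, a call kept in 2 of the 9 fits without 1 array, those without neomycin replicate 3 (1.37) or tacrine-neomycin replicate 1 (1.25). That call was also lost with the slide as a block, with no filter, in either normexp version and in the authors' matrix. For tacrine-neomycin minus control dusp5 rose by 2.43 (SE 0.17, limma adjusted p = 0.00026). nrg1, which encodes the growth factor neuregulin, rose by 0.96 (SE 0.15, limma adjusted p = 0.0149) for tacrine-neomycin minus neomycin, a call lost without neomycin replicate 3 (0.89) or tacrine-neomycin replicate 1 (0.90), and by 1.40 (SE 0.15, limma adjusted p = 0.00156) for tacrine-neomycin minus control. The ligand gene bmp4 fell by 0.78 (SE 0.16, limma adjusted p = 0.0418) for tacrine-neomycin minus neomycin, and the chemokine receptor gene cxcr4a fell by 0.63 (SE 0.15, limma adjusted p = 0.0456) for tacrine-neomycin minus control. Both calls were lost with the slide as a block, and of the fits without 1 array bmp4 kept its call in 2 (without control replicate 1 or control replicate 2) and cxcr4a in 1 (without neomycin replicate 2).

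Markers of cell types that a whole larva holds are given beside these values, and their part in the KLF differences was not tested. Of 11 tested endothelial markers limma called 0 in each comparison. At an unadjusted p under 0.05, in either direction, there were 2, 1 and 7 for tacrine-neomycin minus neomycin, neomycin minus control and tacrine-neomycin minus control. Beside these stand 17.4%, 8.18% and 22.0% of all tested genes, and 7, 6 and 7 of the 11 markers were above 0. Their summed levels, in units of the array's 75th percentile, were 11.9 to 14.9 on tacrine-neomycin arrays, 12.5 to 14.0 on neomycin arrays and 12.1 to 13.3 on control arrays, and the defining marker kdrl was too dim to be tested. These sums and those below add linear levels, so the brightest markers weigh most in them. Of 16 epidermal markers 1 rose for tacrine-neomycin minus neomycin, the keratin gene krt18a.1, by 0.98 (SE 0.20, limma adjusted p = 0.0416), a call kept in 2 of the 9 fits without 1 array (without control replicate 1 or control replicate 2). krt18a.1 also rose by 0.93 for tacrine-neomycin minus control, a call lost in 5 of the 9 fits without 1 array (0.81 at the lowest). At an unadjusted p under 0.05, in either direction, there were 2, 1 and 8 of the 16 in the 3 comparisons, and 7, 6 and 8 of the 16 were above 0. The epidermal sums were 857 to 1043 on tacrine-neomycin arrays, 914 to 1087 on neomycin arrays and 978 to 1346 on control arrays.

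Of 10 ionocyte markers limma called 0 in each comparison, with 0, 0 and 1 at an unadjusted p under 0.05, and the sums were 78.1 to 93.9 on tacrine-neomycin arrays, 78.1 to 94.9 on neomycin arrays and 84.2 to 92.1 on control arrays. Of 14 muscle markers it also called 0, with 0, 2 and 6 at that p, beside the same 17.4%, 8.18% and 22.0% of all tested genes. The muscle sums were 1681 to 2013 on tacrine-neomycin arrays, 1705 to 2138 on neomycin arrays and 2190 to 2759 on control arrays. The control arrays, which were also the dimmest, did not overlap with those of treated larvae in this sum. Of all tested genes taken singly, 13.5% did not overlap for neomycin minus control and 29.9% for tacrine-neomycin minus control.

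Of 9 leukocyte markers 1 rose for tacrine-neomycin minus neomycin, cebpa, a factor of myeloid cells and also of liver, by 1.50 (SE 0.22, limma adjusted p = 0.00975). It rose by 1.81 (limma adjusted p = 0.00234) for tacrine-neomycin minus control, and both calls held in all 9 fits without 1 array. The 9 markers had a median of -0.21 for tacrine-neomycin minus neomycin (4 of 9 above 0) and -0.18 for tacrine-neomycin minus control (3 of 9 above 0). At an unadjusted p under 0.05 there were 3, 0 and 3 of the 9. In the first comparison these included mpeg1.1 (-0.60) and rac2 (-0.39), which were lower. The leukocyte sums were 28.9 to 30.7 on tacrine-neomycin arrays, 20.7 to 33.9 on neomycin arrays and 22.1 to 31.9 on control arrays. These sums include cebpa, with mean log2 levels of 3.19 in tacrine-neomycin, 1.68 in neomycin and 1.38 in control larvae. Of 9 erythroid markers 3 rose for tacrine-neomycin minus neomycin, where 1.92% of all tested genes were called higher, and 5, 2 and 6 had an unadjusted p under 0.05, in either direction, in the 3 comparisons. The 3 were gata1a (1.12, SE 0.24, limma adjusted p = 0.0445), slc4a1a (0.92, SE 0.19, limma adjusted p = 0.0429) and nt5c2l1 (0.72, SE 0.14, limma adjusted p = 0.0298), and klf1 was called higher in the same comparison. These calls were kept in 2, 1 and 2 of the 9 fits without 1 array, and those of gata1a and slc4a1a were lost with the slide as a block. The gata1a call was also lost in the authors' matrix. The 9 markers had medians of 0.72, -0.24 and 0.29 in the 3 comparisons, with 9, 1 and 7 above 0. The 2 at an unadjusted p under 0.05 for neomycin minus control were the globin genes hbae1.1 (-0.57) and hbae3 (-0.59), both lower. The lowest marker for tacrine-neomycin minus control was at -0.41. For tacrine-neomycin minus control with normexp and 75th percentile scaling, gata1a was -0.45 and the median of all tested probes -0.41. In the main version gata1a rose by 0.96 and nt5c2l1 by 0.64 for that comparison. The first of these calls was lost with the slide as a block, in the authors' matrix and in 8 of the 9 fits without 1 array (0.78 to 1.18 over all 9), and the second in 7 of the 9 (0.57 to 0.72). The erythroid sums were 368 to 455 on tacrine-neomycin arrays, 327 to 372 on neomycin arrays and 426 to 532 on control arrays.

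**Figure D5:**
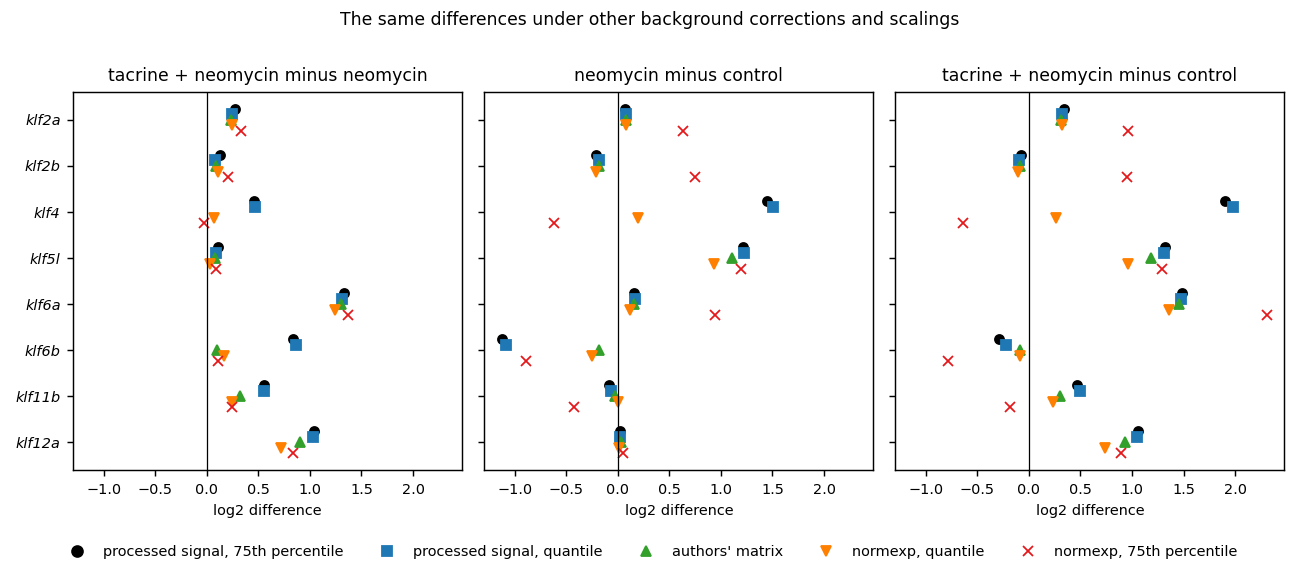
Log2 differences (x axis) of each KLF gene under 5 combinations of background correction and scaling, in tacrine + neomycin minus neomycin, neomycin minus control and tacrine + neomycin minus control (left to right); klf4 has no point for the authors' matrix. klf6a and klf12a are at 0.72 or above in the first and last comparison in every version shown, whereas klf6b nears 0 in the first comparison and klf4 falls to 0.27 or below 0 against control where normexp was used.

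The plot of settings shows which genes hold their size when the background is handled otherwise. klf6a was 1.30 in the authors' deposited matrix and 1.25 with normexp and quantile scaling for tacrine-neomycin minus neomycin, both called, and klf12a was 0.90 and 0.72, both called. klf5l was 1.19 and 0.96 for tacrine-neomycin minus control, both called, whereas neither version called it for neomycin minus control. With normexp and 75th percentile scaling none of these differences was called, at 1.37 for klf6a, 0.84 for klf12a and 1.29 for klf5l (tacrine-neomycin minus control). klf4, all of whose probes were below background in control larvae, was 0.27 with normexp and quantile scaling and -0.64 with normexp and 75th percentile scaling for tacrine-neomycin minus control, and neither was called. The median of all tested probes in the second of these versions was -0.41.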

How the data were processed

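Whole larvae were measured on 9 single-colour arrays, 3 per group. The authors deposited 1 scanner file per array with intensity on a linear scale, background-corrected by Feature Extraction 10.1.1.1 per the file headers; the submitters' processing notes name version 8.0. Other deposited columns hold quality marks of 0 or 1 for each spot: above background, saturated (0 spots an array) or outlying (3 to 9 spots an array). A log2 matrix of 25265 probes was deposited as well, made in a way not given in the sources used here, with column medians of 7.11 to 7.12, whose columns correlated with their own arrays at 0.981 to 0.986; it served as an alternative. The array design is of an older genome build (danRer6), so no coordinates are given, and promoter motifs and sequences were not analysed here.

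Symbols came from RefSeq accessions of the array matched to the GRCz12tu gene table: 25173 probes had 1 symbol and 18430 none. Spots of a probe were averaged, log2 intensity was taken and each array's 75th percentile over non-control probes was subtracted. The 31672 probes well above background on at least 3 of 9 arrays were tested in R 4.3.3 by limma 3.58.1 (all 9 arrays in 1 lmFit model, eBayes with no trend, two-sided, Benjamini-Hochberg over all probes), which was tested on simulated data. Where replicates are described, n is 3 arrays a group, and p-values measure the spread between these experiments.

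The KLF genes and all gene lists were chosen with earlier results of these data known. Named genes are all KLF members with every probe, list genes called by brightest probe (up to 8 per list and comparison), and 3 genes most like each member; klf9 and klf13 were named after their values were seen. Alternatives were quantile scaling, normexp (offset 50, from median signals, as the files hold no mean), other filters, the slide as a block, array weights, trend, the authors' matrix, the probe of smallest p, and leaving out each array.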

Additional observations from a re-analysis of the deposited data

How the results depend on the processing

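Leaving out each array in turn gave 1 to 3 called KLF genes for tacrine-neomycin minus neomycin, 0 to 1 for neomycin minus control and 4 in every fit for tacrine-neomycin minus control, where all arrays gave 3, 1 and 4. Among the 128 other listed genes it gave 1 to 8, 0 to 2 and 3 to 7, against 11, 1 and 8. With normexp and 75th percentile scaling the KLF counts were 0, 0 and 0 and the others 0, 0 and 2. In this version the median of all tested probes was -0.08, -0.35 and -0.41, beside -0.02, -0.02 and -0.05 in the main version. For tacrine-neomycin minus control klf4 was -0.64 in it (-0.23 relative to the median of -0.41). In the same comparison gata1a was -0.45, close to that median. Both count as reversed by their sign. With normexp and quantile scaling 0 KLF genes were called for neomycin minus control, and 6, 0 and 5 others. With no filter, where 43603 probes were tested, it was 0 KLF genes for neomycin minus control and 3, 0 and 3 others. The filter on all 9 arrays and array weights each called 2 KLF genes for neomycin minus control (klf5l higher, klf6b lower), and array weights called 17 and 14 others for the comparisons with tacrine-neomycin. The authors' matrix called 0 and 0 for neomycin minus control. Every call named above as lost with the slide as a block was also lost with no filter and with normexp and 75th percentile scaling. Why the counts moved between these fits was not tested.

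The replicate numbers equal the slides. Deviations of same-numbered arrays from their group means correlated at -0.08 to 0.26, not above 0.1 for every pair. Those of differently numbered arrays of different groups correlated at -0.30 to 0.13. With the slide as a replicate block 2, 0 and 4 KLF genes and 7, 0 and 9 others were called in the 3 comparisons, and 843, 22 and 2291 probes of all, beside 846, 37 and 1875 without it. Over the settings, a KLF gene's value counted as kept where it moved by less than the SD within its groups, whether or not a call held. A value of another called gene counted as kept where it held its direction and its call. By these rules 599 values were kept and 33 of KLF genes moved further. Of the other genes, 162 values kept their direction but lost the call. Reversed were 2 called differences, and uncalled KLF differences that changed sign are not among these. Dim probes (klf4, klf6b and the second klf2b and klf5l probes) limit what can be read from these arrays.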
